A study of Homo sapiens with 10 samples.

Results

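CCBE1 and PMAIP1 are neighbouring protein-coding genes on human chromosome 18, and the region described here is the window from 57.05 to 57.65 Mb (hg19) that holds both. The members were all peaks of 8 ChIP-seq peak lists in that window, which came to 47 of the 26482 peaks listed in all. The window was chosen by measured values, because peaks of both antibodies appeared there with retinoic acid, in the presence of peaks in the lists and in the rank of each peak within its list. Those counts and ranks are therefore given as a description with no test. CCBE1 spans 57.098 to 57.365 Mb and is transcribed towards lower coordinates, and PMAIP1 spans 57.567 to 57.572 Mb and is transcribed towards higher ones. RefSeq places LMAN1 before CCBE1 and MC4R after PMAIP1, and between CCBE1 and PMAIP1 it places 3 pseudogenes and no other gene.

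The cells were SK-N-SH, an established human neuroblastoma line. They were kept in charcoal-stripped serum for 24 hours before treatment with vehicle (untreated, UT) or with retinoic acid (RA) at 1 µM. Chromatin was precipitated with an antibody against MAML3 or against RARα, with 2 lists per antibody and treatment (MAML3 UT, MAML3 RA, RARα UT and RARα RA, replicates 1 and 2 of each). No label says whether replicates came from separate cultures. Both MAML3 UT lists have 1 library number and 1 index sequence between them in their names and may stem from 1 library, and RARα UT replicate 2 is named as merged, which no label explains. The lists held 2222 and 6759 (MAML3 UT), 7532 and 6230 (MAML3 RA), 1321 and 251 (RARα UT) and 1103 and 1064 peaks (RARα RA). The depth of sequencing was not stated in any source used here, and a site without a peak is not shown to be unbound.

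Retinoic acid is the ligand of the retinoic acid receptors, nuclear receptors that sit on DNA with a retinoid X receptor partner and exchange corepressors for coactivators when the ligand binds. In neuroblastoma lines retinoic acid is known to slow growth and to promote neuronal differentiation. MAML3 belongs to the mastermind-like coactivators, best known for completing the Notch transcription complex. CCBE1 encodes a secreted protein of the extracellular matrix that is needed for lymphatic vessel growth and helps the processing of the growth factor VEGF-C. PMAIP1 encodes NOXA, a small BH3-only protein of the BCL-2 family that promotes apoptosis and is a known target of p53.

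MAML3 peaks in the window numbered 1 and 7 in the untreated lists and 14 and 18 in the RA lists. The means were 4 ± 4.24 (SD, n = 2) and 16 ± 2.83 (SD, n = 2). RARα peaks numbered 0 and 0 in the untreated lists and 4 and 3 in the RA lists (mean 3.5 ± 0.707, SD, n = 2). MAML3 UT replicate 2 had more peaks in all than MAML3 RA replicate 2 (6759 against 6230) and fewer in the window (7 against 18). RARα UT replicate 1 was the longest RARα list and had none there. RARα UT replicate 2 held only 251 peaks, with 1 on all of chromosome 18, so its 0 carries little weight. The absence in untreated cells thus rests mainly on RARα UT replicate 1, with 23 peaks on chromosome 18. Per 1000 peaks of the list, MAML3 gave 0.45 and 1.04 in untreated cells and 1.86 and 2.89 with RA, and RARα gave 0 and 0 against 3.63 and 2.82. With 2 lists against 2 an exact permutation test could not give a two-sided p below 0.33.

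**Figure D1:**
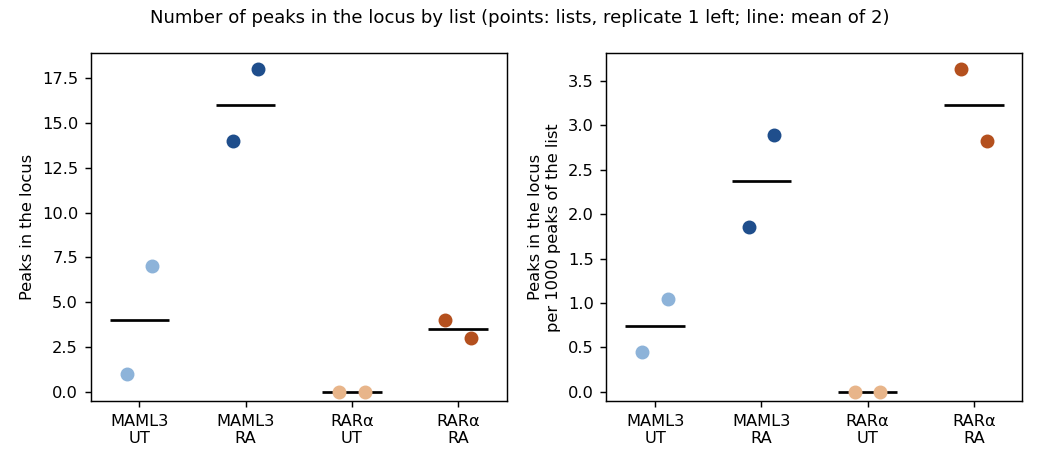
Number of peaks in the window for each of the 8 lists (left) and the same per 1000 peaks of the list (right), with 2 points per group, replicate 1 on the left, and a line at their mean. MAML3 RA lists sit at 14 and 18 peaks, above the 1 and 7 of the untreated lists, and the RARα lists at 4 and 3 against 0 and 0.

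Few peaks lay around the window. The tile of the same 600 kb before it held no peak in any list, and the tile after it held 1 peak of MAML3 UT replicate 2 and 2 of MAML3 RA replicate 1. The nearest peaks outside the window in MAML3 RA replicate 1 were 1345 kb before it and 189 kb after it, and in RARα RA replicate 1 they were 3344 and 3113 kb away. The window held 14 of the 188 chromosome 18 peaks in MAML3 RA replicate 1 and 18 of the 154 in replicate 2. For RARα it held 4 of 18 and 3 of 20.

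Most of these peaks lay inside CCBE1, and none lay at PMAIP1. MAML3 peaks within the CCBE1 span numbered 1 and 5 in the untreated lists and 10 and 14 in the RA lists. All 7 RARα peaks were within it. Between the genes there were 3 MAML3 peaks in each RA list and 0 in each untreated list. Within PMAIP1 there was no peak in any of the 8 lists. Neither gene start had a peak nearby. The peak nearest to the CCBE1 start lay 38 kb upstream of it, at 57402723 to 57402972 in MAML3 RA replicate 1. The peak nearest to the PMAIP1 start lay 58 kb downstream of it, at 57624550 to 57624585 in MAML3 UT replicate 2. For RARα the nearest peak was 141 kb from the CCBE1 start, inside the gene, and 343 kb from the PMAIP1 start. Whether the sites inside CCBE1 are intronic or exonic was not assigned, because an hg19 annotation was not used here.

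**Figure D2:**
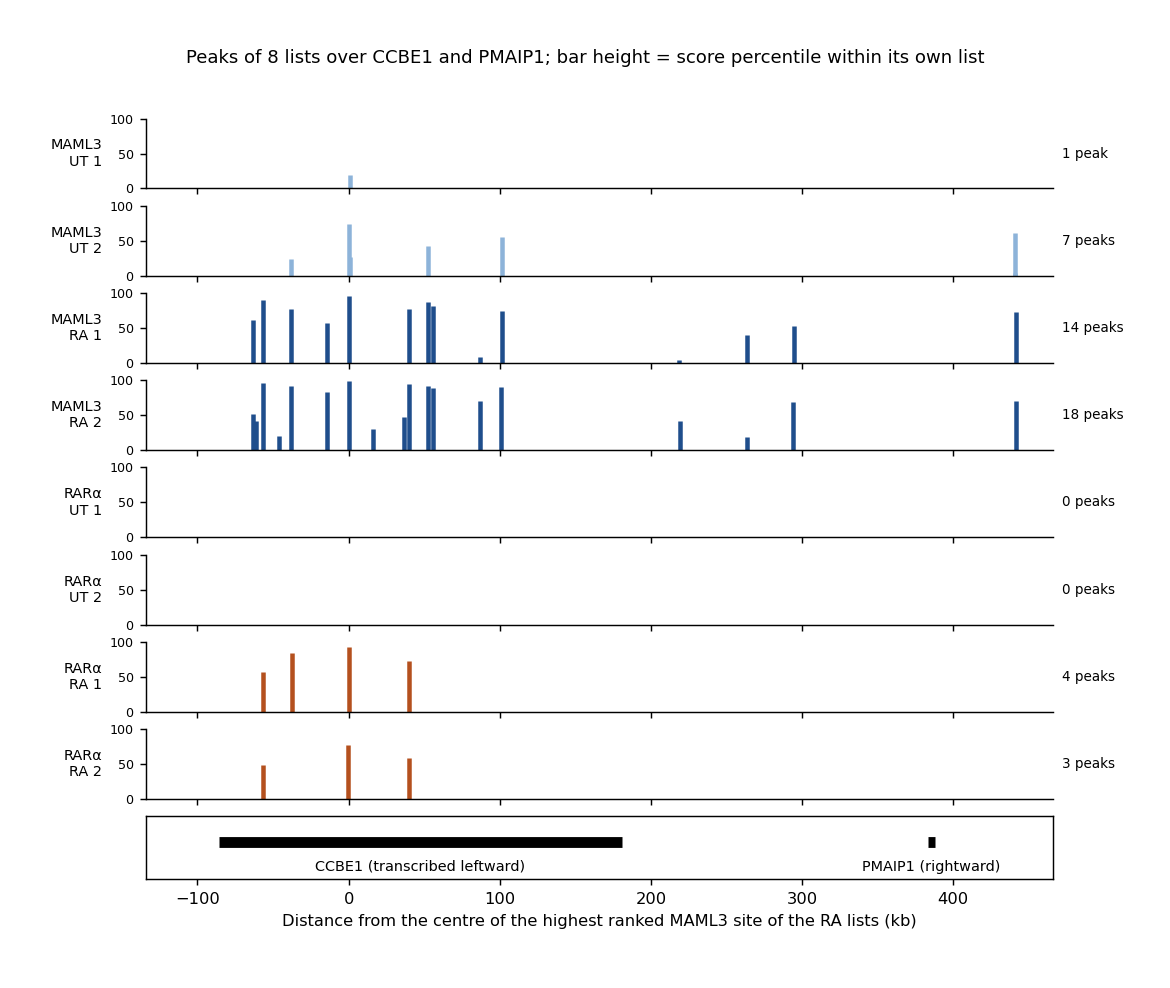
Map of the window in the 8 lists, 1 row per list, with the distance in kb from the highest ranked MAML3 site of the RA lists on the x axis and the within-list score percentile of each peak as bar height. Bars crowd over CCBE1 in the MAML3 RA rows, the RARα RA rows have 4 and 3 bars there, and no row has a bar over PMAIP1.

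To follow single positions, overlapping peaks (1 bp or more) from the 4 lists of an antibody were joined into 1 site, and each peak was ranked by the percentile of its score, meaning the share of its own list that scored lower, with ties counted at their middle. A gained site is one with a peak in both RA lists and in no untreated list, and a lost site is the reverse. The window held 21 MAML3 sites, 15 in CCBE1, 3 between the genes and 3 beyond PMAIP1. Of these, 10 were gained and 1 was lost, whereas over all 10251 MAML3 sites 9.37% were gained and 0.683% lost. Because gained sites led to the choice of the window, nothing is read from that difference. A further 4 sites were held by UT replicate 2 and both RA lists, a pattern of 21.9% of all MAML3 sites, 4 by RA replicate 2 alone and 2 by UT replicate 2 alone. At this overlap no site was held by all 4 lists, a class that made up 16.8% of all MAML3 sites. The 14 sites of both RA lists were 400 to 650 bp long and lay 2.35 to 147 kb apart (median 23.3 kb), and 10 of them lay in a stretch of 165 kb inside CCBE1.

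The highest ranked gained MAML3 site was at 57126973 to 57127572, inside CCBE1 and 238 kb downstream of its start. Its percentile was 89.8 in RA replicate 1 and 96.3 in RA replicate 2, and it ranked 8 among the 961 gained sites by mean percentile. The nearest untreated MAML3 peak was 18.3 kb away. The gained sites at 57239373 to 57239922 (percentiles 81.5 and 89.5) and 57223573 to 57224072 (76.5 and 94.0) came next and ranked 27 and 28. These 3 sites were high in both RA lists, with no untreated peak at any of them. The nearest untreated MAML3 peak was 2.49 kb from the site at 57239373 and 12.6 kb from that at 57223573. The remaining gained sites within CCBE1 were lower or differed more between replicates. The site at 57169623 to 57170072 had percentiles of 57.6 and 83.7, that at 57120673 to 57121072 had 61.5 and 51.6, and that at 57270673 to 57271122 had 8 and 70.

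Upstream of CCBE1, in the stretch towards PMAIP1, the 3 gained MAML3 sites ranked below the leading ones of the gene, and no untreated list had a peak in that stretch. The site at 57478023 to 57478472, which is 89 kb upstream of the PMAIP1 start, had percentiles of 53.3 and 69.1 in the RA lists. The site at 57447023 to 57447422 had 39.4 and 18.8, and the site at 57402723 to 57403122 had 4.14 and 41.5. The last of these was close to the lowest score listed, with 73.62 in RA replicate 1, where the list minimum was 70.01. Over the 10 gained sites of the window the median of the mean percentiles was 65.9 (range 22.8 to 93.1), beside 36.2 over all 961 gained sites. Percentiles were part of the choice of the window, so this is a description only.

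Beyond PMAIP1, 1 more gained MAML3 site stood next to untreated peaks. The site at 57625223 to 57625622 had percentiles of 72.7 and 69.8 in the RA lists. UT replicate 2 had a peak 273 bp before it, at 57624596 to 57624949, with a percentile of 60.7, and a fragment of 36 bp just before that. When peaks within 1 kb were joined, these formed 1 site held by UT replicate 2 and both RA lists, which no longer counted as gained.

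The only lost MAML3 site of the window also lay beside an RA peak. At 57184800 to 57184999 the untreated lists had percentiles of 19.7 and 26.1, and this was the only peak of UT replicate 1 in the window. It was 677 bp from the site at 57183623 to 57184122, which was the highest ranked of the window in both RA lists. With peaks within 1 kb joined, these formed 1 site, so that no site of the window was lost and 1 was held by all 4 lists.

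**Figure D3:**
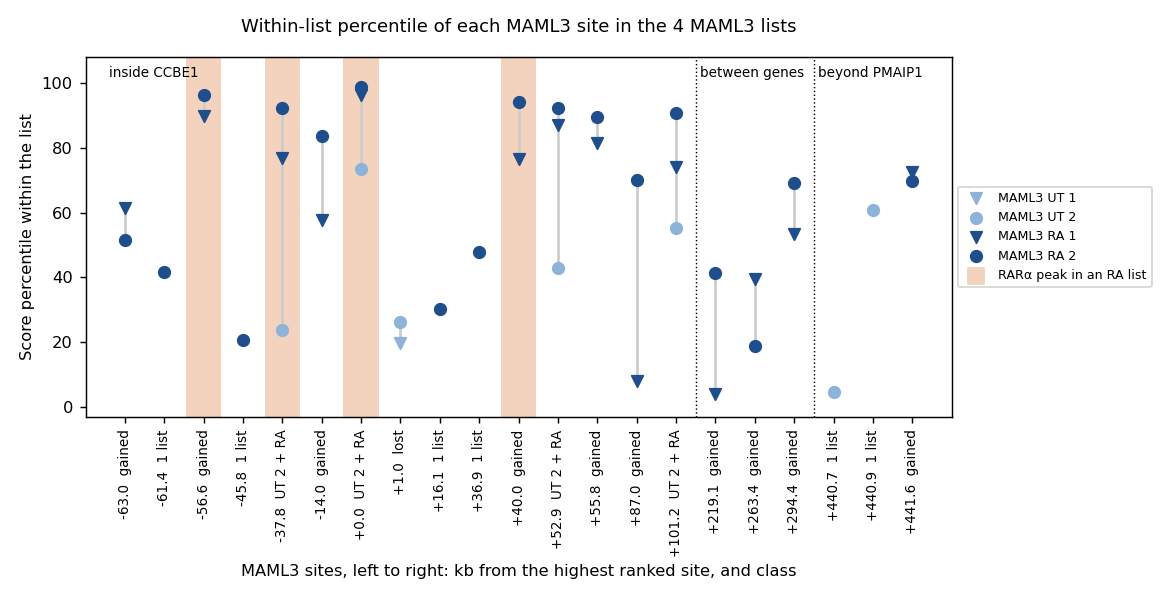
Within-list percentile (y axis) of the 21 MAML3 sites in order along the chromosome (x axis, distance in kb from the highest ranked site, with the class of the site), for UT (light) and RA (dark) lists, replicate 1 as triangles and replicate 2 as circles. Shading marks the 4 sites with a RARα peak in an RA list, and at the 4 sites held by UT replicate 2 and both RA lists the RA symbols lie above the untreated one.

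The 4 sites held by UT replicate 2 and both RA lists all lay inside CCBE1, and show how sites with a MAML3 peak before treatment ranked after it. At 57183623 to 57184122 the percentile was 73.5 in UT replicate 2, 96.2 in RA replicate 1 and 98.8 in RA replicate 2. At 57145773 to 57146322 the values were 23.7, 76.8 and 92.2, the widest difference of the 4. At 57236473 to 57237022 they were 42.8, 87.2 and 92.2, and at 57284723 to 57285372 they were 55.4, 74.1 and 90.9. Both RA lists thus ranked each of the 4 sites higher than the untreated list did. Among the 2238 sites elsewhere with the same presence in the lists, both RA lists ranked the site higher in 41.2%. The mean rise over the RA lists was 24, 60.8, 46.9 and 27.1 percentile points at the 4 sites in the order given. Its median elsewhere was 2.2 points, with quartiles of -12.3 and 17.5. Of the sites elsewhere, 81.4, 98.7, 95 and 84.5% had a smaller rise than these. The rule used the same percentiles, so this is a description, and it rests on 1 untreated list.

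**Figure D4:**
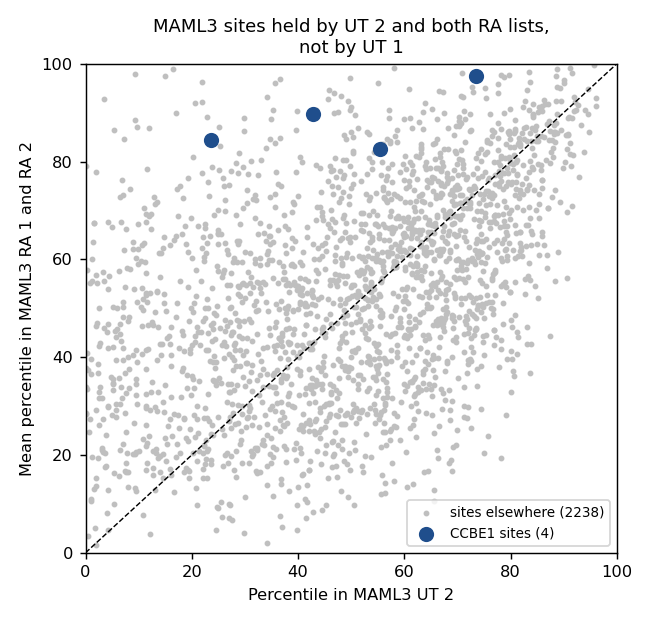
Percentile in MAML3 UT replicate 2 (x axis) against the mean percentile in the 2 MAML3 RA lists (y axis) for all sites held by these 3 lists and not by UT replicate 1, with a dashed line of equality. The 4 CCBE1 sites (large points) lie above the line, with rises of 24 to 60.8 points, among 2238 sites elsewhere (small points) with a median rise of 2.2.

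RARα, the ligand-binding receptor, had 4 sites in the window, all in CCBE1, and 3 of them were gained. Over all 2120 RARα sites 5.42% were gained, 0.472% were lost and 6.75% were held by all 4 lists, and the window held 0 of the last 2 classes. At 57183609 to 57184060, RARα had percentiles of 92.1 in RA replicate 1 and 76.7 in RA replicate 2, and the site ranked 13 among the 115 gained RARα sites. At 57223609 to 57223960 the percentiles were 73.4 and 59.0, and at 57127011 to 57127458 they were 57.3 and 49.3. All 3 were ranked higher in replicate 1 than in replicate 2. MAML3 was ranked higher in RA replicate 2 at 11 of its 14 sites of both RA lists. That share over all such MAML3 sites was not computed. Among the 2238 sites elsewhere held by UT replicate 2 and both RA lists, the median was 60.2 in RA replicate 1 and 51.3 in RA replicate 2. Replicate numbers are not stated to pair the lists of the antibodies. At 57145961 to 57146310 RARα was listed in RA replicate 1 alone, with a percentile of 83.9. The nearest untreated RARα peak to any of the gained sites was 2298 kb away.

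Each RARα site lay on a MAML3 site of both RA lists. The centres of overlapping RARα and MAML3 peaks were 11 to 113 bp apart (median 49 bp over 14 pairs of peaks). Of the 3 gained RARα sites, 2 lay on gained MAML3 sites, and the third lay on the top ranked site, where MAML3 UT replicate 2 also had a peak. Elsewhere 18 of 112 gained RARα sites lay on a gained MAML3 site. Of the same sites 85 (75.9%) lay on both MAML3 RA lists, and 77 (68.8%) lay on at least 1 untreated MAML3 list, compared with 1 of 3 here. The window was chosen by peaks present with RA and absent without it, so nothing is read from these differences.

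RARα peaks of the RA lists lay on MAML3 sites of high rank in the window, as they did elsewhere. Over the 4933 sites elsewhere that both MAML3 RA lists held, the median of the mean percentile (over the MAML3 lists that hold the site) was 79.7 for sites with such a RARα peak and 51.2 for sites without one, and in the window the medians were 87.4 and 65.9. By mean percentile in the RA lists, the 4 MAML3 sites with RARα had 97.5, 93.1, 85.3 and 84.5, and all were among the 6 highest of the 14. The other two of these 6, a pair 2.35 kb apart at 57236473 and 57239373, had 89.7 and 85.5 and no RARα peak in any list. None of the 8 lower sites, with 22.8 to 82.5, had one. Sites elsewhere that reached the 84.5 of the lowest site with RARα, a limit set after these values were seen, had a RARα peak of an RA list in 630 of 988 cases (63.8%). The proportion in the window was 4 of 6 (66.7%). That limit keeps every window site with RARα and leaves out the next site, at 82.5, so the 2 shares are not compared. The same 988 sites had an untreated RARα peak in 556 cases (56.3%), and the 6 sites of the window had it in 0. Presence of peaks in untreated and RA lists led to the choice of the window, so nothing is read from that 0. Among gained MAML3 sites, 2 of 10 had a RARα peak of an RA list in the window and 109 of 951 (11.5%) elsewhere. These are counts of few sites, and no test was made of the differences.

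The lists number their peaks. Numbers rise with position in every list, and some numbers are not listed. In RARα UT replicate 1 the peaks on both sides of the window, ending at 53705897 and starting at 59522413, are numbered 641 and 642, so no number is unaccounted for across the window. In MAML3 UT replicate 2 and in both MAML3 RA lists no number is skipped either, from the last peak before the window to the first after it. In the RARα RA lists 3 numbers are skipped inside CCBE1. One is in replicate 2 between 57127458 and 57183609, the interval that holds the site at 57145961 listed in replicate 1 alone, and the others are in replicate 1, between 57146310 and 57183661 and between 57184060 and 57223611. In MAML3 UT replicate 1, 1 number is skipped on each side of its only peak, over stretches that reach far outside the window. In RARα UT replicate 2, 7 numbers are skipped in the stretch that includes the window. Peaks with skipped numbers were not analysed here.

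With lists of equal length the MAML3 RA lists still held more peaks in the window than the untreated lists. The rule used these same peaks and scores, so this too is a description. Each MAML3 list was shortened to its 2222 highest scores, the length of the shortest. UT replicate 1 was thus kept whole, with scores down to 70.03, and the other lists were cut at 190.34 to 238.58. The untreated lists then had 1 and 1 peaks in the window and the RA lists 8 and 11, with 7 gained sites, beside 7.99% of all sites in these lists. The single peak left in UT replicate 2 was the one at 57183700, in the top ranked site. With the RARα lists shortened to 251 peaks, RA replicate 1 kept the peaks at 57145961 and 57183661 and RA replicate 2 kept that at 57183609, and 1 gained site was left, beside 8.33% of all sites.

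The window was set beside the other tiles of 600 kb, laid over the genome in phase with it. Counting the window, 3114 tiles held a peak. It had 10 gained MAML3 sites and 3 gained RARα sites. The most gained MAML3 sites in any other tile was 6, and 567 of the 727 tiles with a gained MAML3 site had 1. Gained sites led to the choice of the window, and the other tiles were not placed around theirs, so nothing is read from this difference. Gained sites of both antibodies occurred in 43 tiles. The 3 tiles most like the window, by the Euclidean distance between their 8 peak numbers per 1000 peaks of the list, were on chromosome 21 from 22850001 to 23450000, on chromosome 3 from 73250001 to 73850000 and on chromosome 1 from 12050001 to 12650000 (distances 2.36, 2.38 and 2.72). The chromosome 21 tile held 1 and 4 MAML3 peaks in the untreated lists and 5 and 7 in the RA lists, with 0 and 0 RARα peaks against 3 and 3. It had 3 gained RARα sites, as many as the window, and 0 gained MAML3 sites. The chromosome 3 tile had 3 gained MAML3 sites and 1 gained RARα site, and the chromosome 1 tile had 4 and 1, so both of these tiles also held gained sites of both antibodies.

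**Figure D5:**
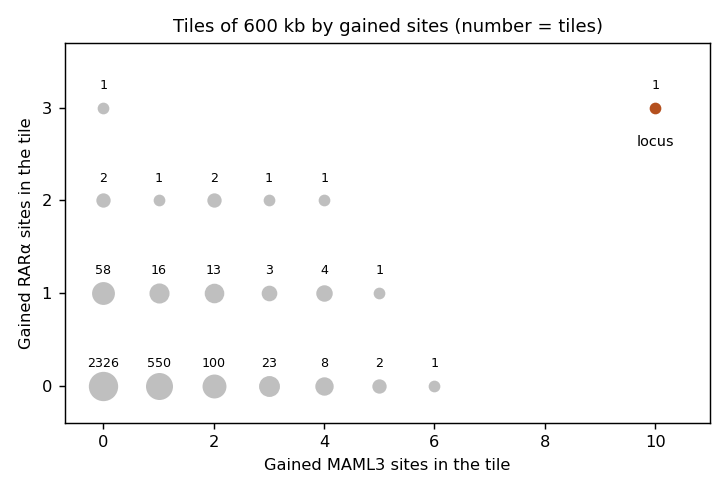
Tiles of 600 kb by their number of gained MAML3 sites (x axis) and gained RARα sites (y axis), with the number of tiles written at each point and point size rising with its logarithm. The window, at 10 and 3, lies apart from the other tiles, which have at most 6 gained MAML3 sites. It was chosen for its gained sites, so its position is a description only.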

How the data were processed

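The labels name 10 samples, of which 8 have a peak list analysed here. The 2 input samples were not analysed here. Per the submitters' processing notes, BWA 0.5.9, MACS, bedtools and the hg19 build were used. The threshold, the control library, and what the filtering and intersection in the list names were, are not stated there. Libraries were amplified for 15 cycles, per the labels' protocols. Each peak has 1 number, a score deposited by the authors, which served only to rank peaks within a list. Its minimum was about 70 in each list.

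The labels gave each list's group and replicate. Starts are printed counting from 1. Gene spans are those given with the choice of the window, to the nearest kb, and orientation and neighbours came from RefSeq (GRCh38.p14), whose coordinates were not used. Sequences of the sites were not printed, because an hg19 genome was not used here. Python 3.11.15, numpy 2.4.6 and pandas 2.3.3 were used, and the merging of peaks was tested on simulated lists. Simulated sites lay too far apart for the merging rules to differ, so peaks close to each other were not tested.

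The window, its members and the site classes were chosen with earlier results of these data known. Sites named are all gained and lost sites, those of UT replicate 2 and both RA lists, those with both antibodies, those nearest to a gene start and the top site of each list. The class of UT replicate 2 and both RA lists, the skipped peak numbers and the comparison at high percentile were chosen after the values were seen.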

Additional observations from a re-analysis of the deposited data

How the results depend on the processing

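Alternatives were an overlap of 50% of the shorter peak, merging within 1 kb, the upper 50% of each list, equal list lengths, the CCBE1 span alone, another treatment of ties and each replicate left out. Of 65 recomputed values for 9 results, 52 stayed close to the value reported and 13 moved. Close meant within 1.5-fold for counts of sites, and within the SD between replicates for means and medians. Values per 1000 peaks are on another scale and were counted as moved. A change of direction could be seen only in the differences in mean peak number, and none occurred. No untreated RARα list had a peak in the window. Lost RARα sites thus could not move, the RARα difference could not reverse, and dropping such a list changed nothing. The CCBE1 span could not change the RARα difference, nor a dropped MAML3 list the sites with both antibodies. So the 52 include values fixed beforehand and do not measure robustness. Gained MAML3 sites numbered 7 to 14 (14 without UT replicate 2 or without RA replicate 1). The gained share of all MAML3 sites was 9.37%. It was 9.63 and 35.7% without UT replicate 1 and 2, and 21.3 and 26.9% without RA replicate 1 and 2. Lost MAML3 sites fell from 1 to 0 with merging within 1 kb (which also gave 1 site in all 4 lists), with the top 50% and with equal length. With single replicates left out they numbered 1 to 3, with 3 without UT replicate 1, where 1 list alone defines untreated. Over all MAML3 sites 1370 were then lost, against 70 with all lists. Gained RARα sites were 1 with equal length and 2 to 4 otherwise. Of all RARα sites 5.42% were gained. That share was 25 and 5.98% without UT replicate 1 and 2, and 23.7 and 25.3% without RA replicate 1 and 2. The rise in the mean number of MAML3 peaks, 12, was 8.5 to 15, or 1.63 per 1000 peaks. For RARα it was 3.5, and became 3 with the top 50%, 1.5 with equal length, 3.22 per 1000 peaks and 3 to 4 with an RA replicate left out. The median percentile in the RA lists went from 71.3 to 56.5 for MAML3 and from 73.4 to 29.3 for RARα with equal length, where only the top of each list remains. The replicate numbers are not stated to pair the lists. Taken within numbers (a replicate block, added after the data were seen), the differences were 13 and 11 peaks for MAML3 and 4 and 3 for RARα, with the same means of 12 and 3.5 by construction. Precision could not be set from sequencing depth, which is not stated.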
